A study of Caenorhabditis elegans with 2 samples.

Results

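The genes rpr-1 and mrpr-1 encode the RNA subunits of ribonuclease P and ribonuclease MRP in Caenorhabditis elegans, and each carried 1 peak of the nuclear hormone receptor NHR-76 over its 5' end. They are 2 of 46890 annotated genes on the 6 nuclear chromosomes. The pair was chosen by its ChIP signal, with earlier results of these data known, so signal, rank and peak status are given as a description with no test. The data are ChIP-seq of NHR-76 in whole L1 larvae, with 2 libraries labelled as biological replicates 1 and 2 of 1 group. Every worm was of strain OP203, which carries unc-119(ed3) III and the insertion wgIs203, which stably expresses NHR-76 fused at the C-terminal side to GFP-FLAG. Sexes were pooled and the age was given as unknown. The promoter that drives the tagged receptor was not given in the sources used here. The labels do not say that the libraries came from separate cultures, so their spread may be technical in part. No control ChIP was analysed here, though the authors' listings give a control among the sources of each library's list. The reads behind each region are unknown.

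Ribonuclease P is a ribonucleoprotein that removes the leader from the 5' side of precursor tRNAs, and its RNA is the catalytic part. Ribonuclease MRP has a related RNA, shares most of its proteins with ribonuclease P and cleaves precursor ribosomal RNA in the nucleolus. In vertebrates RNA polymerase III transcribes the genes of both RNAs, of U6 snRNA and of the Y RNAs from promoters that lie wholly upstream of the gene, with a proximal sequence element bound by the complex SNAPc and a TATA box. The files say nothing of which polymerase transcribes the worm genes.

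The bases before mrpr-1 are shown because the peak summit lies at their end. They are the 100 bases before its 5' end (chrII:7200133-7200232, plus strand, RefSeq sequence of WBcel235), set beside those of yrn-1, the Y RNA gene (chrIV:7499408-7499507, plus strand), and of W05B2.8, an snRNA gene (chrIII:10989579-10989678, plus strand). Capitals mark 2 elements, TGTCNG and then TATATA, which were picked by eye from the bases before rpr-1, mrpr-1, yrn-1 and other RNA genes.
mrpr-1: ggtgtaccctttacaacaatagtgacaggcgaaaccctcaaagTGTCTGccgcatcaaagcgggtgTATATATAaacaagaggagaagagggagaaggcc
yrn-1: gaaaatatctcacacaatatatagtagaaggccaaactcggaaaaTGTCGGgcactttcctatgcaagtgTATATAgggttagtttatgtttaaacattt
W05B2.8: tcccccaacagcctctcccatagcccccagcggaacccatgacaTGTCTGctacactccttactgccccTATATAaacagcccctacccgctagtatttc
The RNA gene mrpr-1 itself (WBGene00045095, chrII:7200233-7200418, plus strand, 186 bp, annotated as ncRNA) follows directly, and most of it lies under the peak.
mrpr-1 gene: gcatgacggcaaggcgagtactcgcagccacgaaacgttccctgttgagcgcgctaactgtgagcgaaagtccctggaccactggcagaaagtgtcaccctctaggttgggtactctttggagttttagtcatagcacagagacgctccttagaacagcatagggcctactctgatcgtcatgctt

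In the bases before mrpr-1, TGTCNG began 57 bases before the 5' end and TATATA began at 34 and, in the same run of letters, at 32. The second of these starts 25 bases after TGTCNG. Before rpr-1 the elements began 55 and 30 bases ahead of the 5' end, also 25 bases apart, and yrn-1 and W05B2.8 had the same spacing. This spacing was noticed after the search for the elements. Within the whole region listed over each gene, searched on both strands, TGTCNG began at 2 positions in rpr-1 and 2 in mrpr-1, and 50.4% of the 248 thresholded peaks and 35.8% of the 30000 pooled regions hold it. TATATA began at 1 position in rpr-1 and at 2 in mrpr-1, and is in 8.06% of the peaks and 9.04% of the pooled regions. TATAAA was in the mrpr-1 region, 30 bases ahead of the 5' end, and in 24.6% of the peaks and 27.3% of the pooled regions. The run TTTTT was in the mrpr-1 region, in 89.1% of the peaks and in 92.4% of the pooled regions. GAGAGA was in the rpr-1 region, in 50% of the peaks and in 20.4% of the pooled regions. The other letters searched were in neither region. They are the nuclear receptor half-sites AGGTCA (9.68% of the peaks and 8.78% of the pooled regions) and AGTTCA (9.27% and 20.4%), and the GATA site TGATAA (17.3% and 27.2%). They also include the GC box GGGCGG (21.8% of the peaks and 6.05% of the pooled regions) and GTTCNANNC, the B box inside tRNA genes (16.9% and 12.8%). A missing match says only that these letters are not in this window.

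The signal over rpr-1 was high in each library. The gene (WBGene00045238, I 13463955 to 13464207, plus strand, 253 bp, annotated as ncRNA) lies in an intron of ints-8, which encodes a subunit of Integrator, the complex known for cutting the 3' ends of snRNAs, and which runs on the other strand. That intron is number 5 of 9 in the longer annotated transcript, number 1 of 5 in the other, and 2023 bp long. The deposited pooled signal, in the peak caller's own units, was 40.4 over rpr-1. It was 18.8 in replicate 1 and 23.1 in replicate 2. Each list has its own scale, so values are also given over the median listed region of the same list, which is 10.3 in the pooled list, 6.50 in replicate 1 and 6.07 in replicate 2. On that scale rpr-1 had 2.90 times the median region in replicate 1 and 3.80 times in replicate 2, a mean of 3.35 ± 0.641 (SD, n = 2 libraries), and 3.92 times in the pooled list.

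The rpr-1 region ranked 116 in the pooled list, 192 in replicate 1 and 113 in replicate 2, among 30000 regions in each. The thresholded list keeps 248 of the 30000 pooled regions (0.827%), named by the authors as optimal peaks by the irreproducible discovery rate, and the rpr-1 region is among them. The q-value, read from the deposited −log10 column, was 0.0131 in replicate 1. In replicate 2 (q = 0.00214) and in the pooled list (q = 0.00280) it was the smallest the list holds, a value shared by 234 regions and 179 regions. The q-value therefore does not order the strongest regions.

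The signal over mrpr-1 was as high in the pool but less even between the libraries. The pooled signal was 40.1, with 15.98 in replicate 1 and 28.03 in replicate 2. Over the median region that is 2.46 times in replicate 1 and 4.62 times in replicate 2, a mean of 3.54 ± 1.53 (SD, n = 2 libraries), and 3.90 times in the pooled list. The ranks were 117 in the pooled list, 351 in replicate 1 and 62 in replicate 2, so mrpr-1 was among the 248 strongest regions of replicate 2 and not of replicate 1. Its q-value in replicate 1 was 0.0243, and in replicate 2 and in the pool it was at the smallest listed value.

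The pair could not be put in order. Their pooled regions held neighbouring ranks, mrpr-1 was lower than rpr-1 in replicate 1 and higher in replicate 2, and the means differed by less than either SD. Replicate 2 over replicate 1 was 1.31 for rpr-1 and 1.88 for mrpr-1. Among the 244 of 248 peaks listed in both libraries this ratio had a median of 1.12, with quartiles of 0.783 and 1.59, and 96 peaks had a higher ratio than rpr-1 and 37 a higher one than mrpr-1. Over the same 244 peaks the median signal was 3.04 times the median region in replicate 1 and 3.38 in replicate 2, so rpr-1 and mrpr-1 were below it in replicate 1 and above it in replicate 2.

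**Figure D1:**
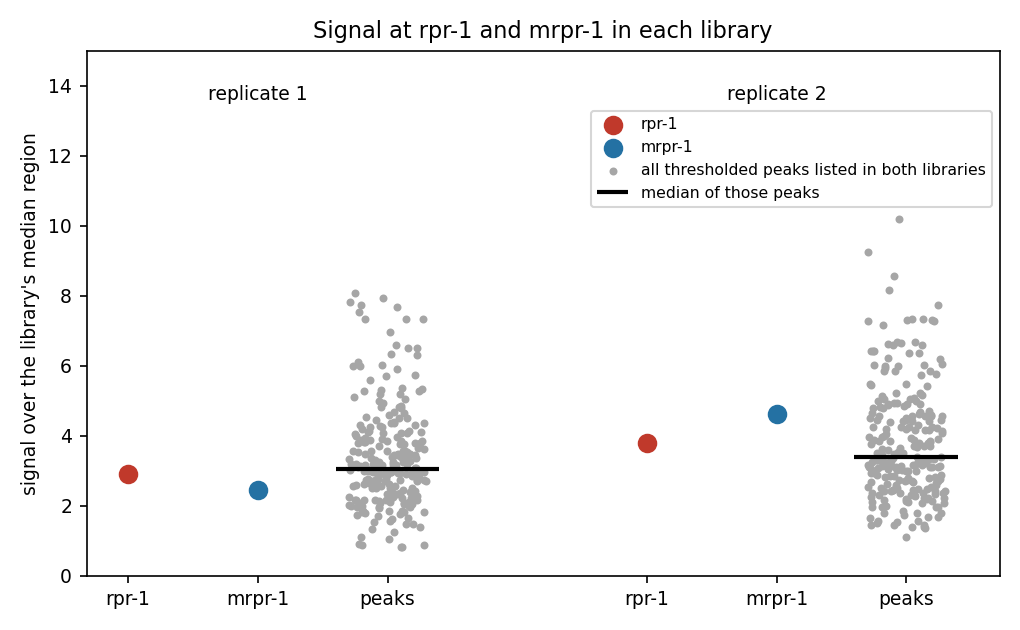
Signal over the library's median region (vertical axis) at rpr-1, mrpr-1 and the 244 thresholded peaks listed in both libraries (grey points, with their median as a line), for replicates 1 and 2. The rpr-1 points are at 2.90 and 3.80, the mrpr-1 points at 2.46 and 4.62, and each pair lies below the peak median in replicate 1 and above it in replicate 2.

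In the pooled list the regions ranked next to them were an X-linked one over F09A5.3 and its ncRNA gene F09A5.11 at rank 115 (signal 40.6) and one over no annotated gene at rank 118 (signal 39.99). All signals in this stretch lay close together, and the peaks as a whole ran from 30.8 to 114.6. The 2 regions thus lie in the middle of the peak list by strength.

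**Figure D2:**
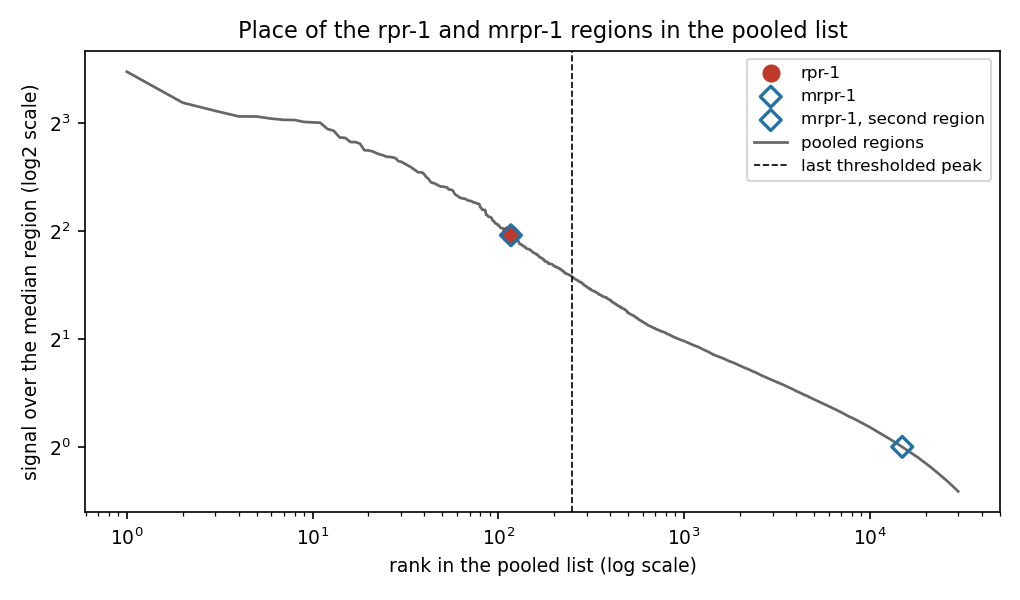
Pooled signal over the median region (log2 axis) against rank in the pooled list (log axis), with rpr-1 (filled circle, rank 116) and mrpr-1 (open diamonds, ranks 117 and 14970) marked and the last of the 248 thresholded peaks as a dashed line. The regions over the 5' ends coincide on the curve left of the line, and the second mrpr-1 region sits at the median.

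Both pooled summits lay just ahead of the 5' end. The position given as the summit is the middle of the region in every list, so it says no more than where the region was centred. For rpr-1 the pooled region (I 13463777 to 13464100, 324 bp) was centred 16 bp upstream of the 5' end and covered 146 bp of the gene, 57.7% of it. Its centre was 13 bp upstream in replicate 1 and 68 bp downstream in replicate 2, which are 81 bp apart. For mrpr-1 the pooled region (II 7200065 to 7200388, 324 bp) was centred 6 bp upstream and covered 156 bp, 83.9% of the gene. Its centre was also 6 bp upstream in replicate 2, but 136 bp upstream in replicate 1, where the region covered 36 bp of the gene. The libraries' centres were 130 bp apart there.

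**Figure D3:**
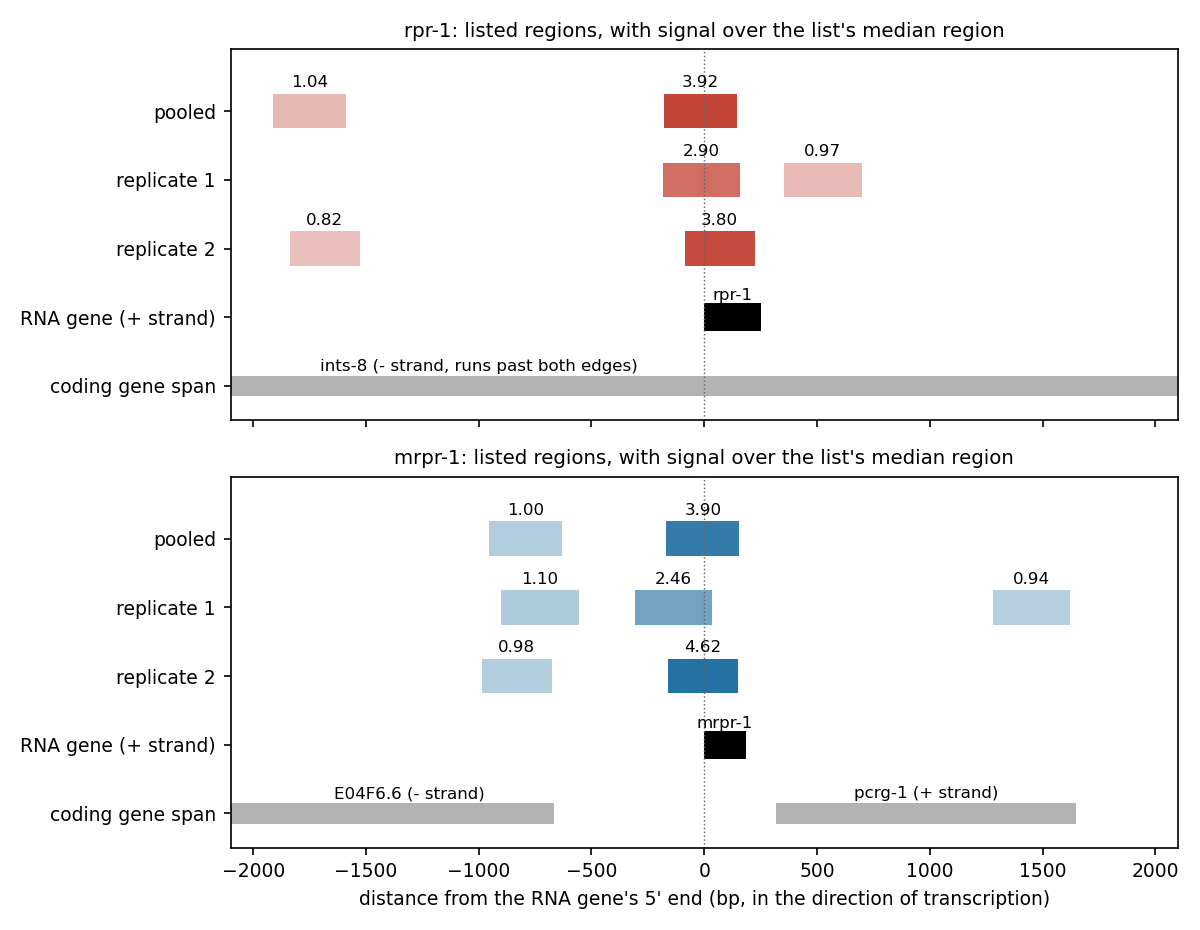
Listed regions around rpr-1 (top) and mrpr-1 (bottom) by distance from the 5' end of the RNA gene in bp, one row each for the pooled list and replicates 1 and 2, with the signal over the list's median region printed above each bar and darker bars for higher signal. The strong bars span the 5' end in all rows, and the bars elsewhere are at 0.82 to 1.10.

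No second strong region lay beside either gene. Within 1 kb of rpr-1 the thresholded, pooled and replicate 2 lists held 1 region each, and replicate 1 held 2, the other being centred 526 bp downstream of the 5' end at 0.971 times the median region (rank 16192). Within 1 kb of mrpr-1 the thresholded list held 1 region and the other lists 2 each. The weaker of these was centred 793 bp upstream in the pool (rank 14970, 1.00 times the median region), 728 bp upstream in replicate 1 (1.10 times) and 831 bp upstream in replicate 2 (0.979 times). In the pool its centre was 125 bp inside E04F6.6, a coding gene on the other strand that RefSeq lists as uncharacterized.

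The coding genes near the peaks differ between the pair. The rpr-1 summit was 6432 bp inside ints-8, counted from the 5' end of that gene's whole annotated span. By whole spans this is the nearest coding 5' end, and Y48G10A.3 and Y48G10A.6 begin 10246 bp and 12476 bp away. The shorter ints-8 transcript starts in the exon next to the intron that holds rpr-1. The distance from the summit to that start was not measured. The mrpr-1 summit was 322 bp upstream of pcrg-1, the homologue of the Parkin coregulated gene, and 662 bp upstream of E04F6.6, which is transcribed away from it. By overlap with a gene or 1 kb to either side, the mrpr-1 peak therefore counts for 2 coding genes as well, and the rpr-1 peak for ints-8. Both coding 5' ends lie within 1 kb of the mrpr-1 summit. By whole gene spans no coding 5' end lies within 1 kb of the rpr-1 summit, but starts of single transcripts were not measured. In replicate 1 the mrpr-1 region was centred 452 bp upstream of pcrg-1. At a region width of 324 bp, signal at the 5' end of mrpr-1 and signal just upstream of pcrg-1 cannot be told apart by position.

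Neither region has a close copy elsewhere. A blastn search of the genome found 0 second matches of at least 50 bp at 95% identity for the region or the gene of rpr-1, and 0 for those of mrpr-1. The longest weaker match was 59 bp at 79.7% identity for the rpr-1 region and 35 bp at 88.6% for that of mrpr-1. The W05B2.8 region had 15 second matches and the gene itself 22. GC content was 54.3% in the rpr-1 region and 47.5% in the mrpr-1 region, against a median of 43.2% over the 248 peaks and 37.3% over the other 29752 pooled regions. Of the peaks, 6.45% were richer in GC than rpr-1 and 29.03% richer than mrpr-1, and the part of GC in the signals was not tested.

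Having a peak within 1 kb was uncommon among genes. It held for 607 of 46890 genes (1.29%), both of these genes among them by the way they were chosen, and 286 (0.61%) were overlapped by a peak directly. By class, a peak lay within 1 kb of 126 of 7764 genes annotated as ncRNA (1.62%), the class of rpr-1 and mrpr-1. The counts were 28 of 612 tRNA genes (4.58%), whose products ribonuclease P cuts, 32 of 346 snoRNA genes (9.25%) and 9 of 129 snRNA genes (6.98%). For the 20 annotated ribosomal RNA genes the count was 0, and none of them had a pooled region within 1 kb. These are repeated copies, at which reads can be lost or misplaced.

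Summits so near the 5' end also occurred in tRNA genes. Of 23 tRNA genes overlapped by a peak, 8 (34.8%) had the summit within 20 bp of the 5' end, with a range from 153 bp upstream to 108 bp downstream. Of 20 snoRNA genes 4 did (20%), of 9 snRNA genes 0, and of 83 other ncRNA genes shorter than 1 kb 2 (2.41%). The median summit was 17 bp upstream for tRNA genes, 42.5 bp upstream for snoRNA genes, 37 bp upstream for snRNA genes and 81 bp downstream for the ncRNA genes. Some of these genes share a peak.

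**Figure D4:**
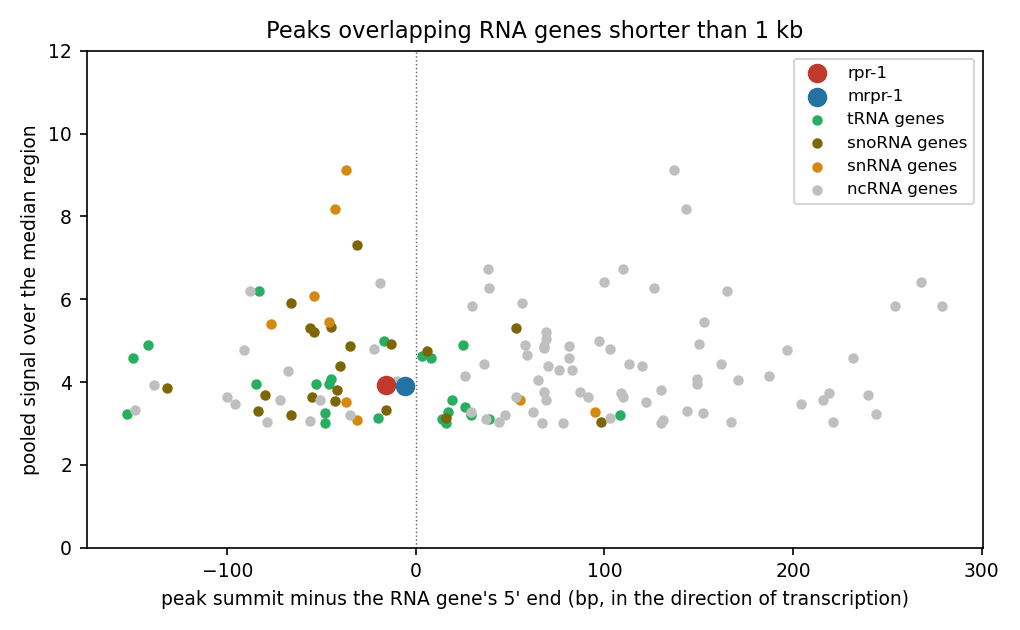
Pooled signal over the median region (vertical axis) against the distance of the peak summit from the 5' end in bp, for rpr-1, mrpr-1 and other RNA genes shorter than 1 kb that a thresholded peak overlaps. The rpr-1 and mrpr-1 points are at 16 and 6 bp upstream and at 3.92 and 3.90, inside the range of the tRNA and snoRNA points.

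The spacing of the upstream elements was shared with other RNA genes. Of 46882 genes with 100 bases before them, TGTCNG followed by TATATA was found before 95 (0.203%), and with starts 25 bases apart before 27. Of these 27, 26 were RNA genes (11 ncRNA, 12 snRNA, 2 snoRNA and 1 miRNA gene) and 1 was protein-coding. In 22 of the 26 the first element began 55 or 56 bases before the 5' end. Leaving out rpr-1 and mrpr-1, a thresholded peak overlapped 1 of the other 24, the snRNA gene W05B2.8. By class, a peak overlapped 6.98% of the 129 snRNA genes and 1.12% of the 7764 ncRNA genes, against 0.61% of all genes. The elements were picked on yrn-1 and other RNA genes as well, so the 24 are not a separate set. A pooled region of any strength overlapped 11 of the 24. The signal on W05B2.8 was 6.08 times the median region (rank 33), above rpr-1 and mrpr-1. Below them came M163.13 (2.65 times), CD4.18 (2.63), F54D8.7 (2.23) and R07E5.16 (1.86). On yrn-1 the pooled region had 0.894 times the median, with a region within 1 kb at 1.02 times in replicate 2 and none listed in replicate 1. No region overlapped the other 13 genes. The W05B2.8 gene has near-identical copies, so its reads may be split or lost. Which genes these copies are was not listed, and the same limit may hold for other snRNA genes of the 24, listed or not. The elements and their spacing were chosen after these data had been seen, on rpr-1, mrpr-1, yrn-1 and other RNA genes. The share of RNA genes among the 27 may follow from that choice, and the counts carry no test.

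**Figure D5:**
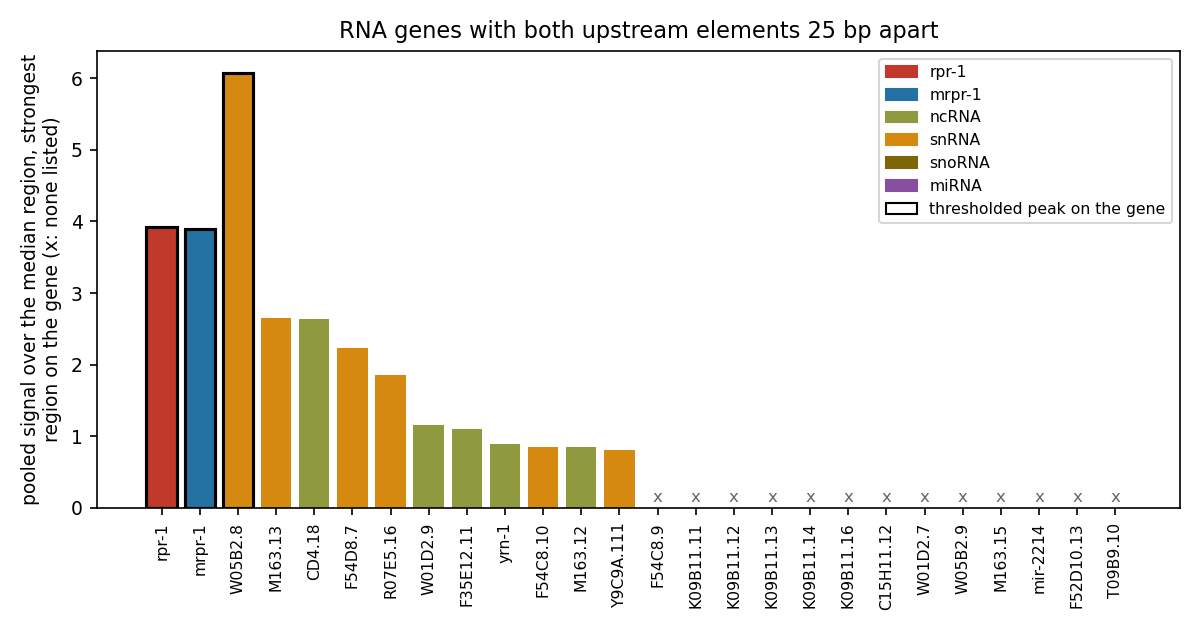
Pooled signal over the median region on each of the 26 RNA genes that have the upstream elements 25 bases apart, with rpr-1 and mrpr-1 at the left, bars coloured by annotated class, a black outline for a thresholded peak and a cross for no listed region. The outlined bars are rpr-1 (3.92), mrpr-1 (3.90) and W05B2.8 (6.08).

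The listed genes for protein partners and transcription machinery are described by their levels, since at the share of 1.29% of all genes with a peak within 1 kb, counts of 0 in lists this short say nothing about them. Of 4 genes named popl-, after the yeast Pop proteins of ribonuclease P and MRP and added after the annotation had been read, 0 had a peak within 1 kb. The pooled signal was 1.66 times the median region at popl-7 (rank 2156), 1.27 at popl-1 and 0.846 at popl-5. In replicates 1 and 2 it was 1.53 and 1.15 at popl-7, and 1.33 and 1.62 at popl-1. At popl-5 it was 1.40 in replicate 2, with no region listed in replicate 1. No pooled region was listed at popl-4. Of 32 symbols listed for RNA processing, 28 were found and 0 had a peak. For the 25 of them with a pooled region, the strongest region had a median of 1.27 times the median region. It was 1.11 over all 29420 genes with a listed region. These span all gene classes, so the medians are not like for like. The highest were ncl-1, a regulator of nucleolar size (2.06 times, rank 835), the box C/D snoRNP gene nol-56 (2.03) and the fibrillarin gene fib-1 (2.00). In replicates 1 and 2 these were 2.30 and 2.47 for ncl-1, 2.22 and 1.59 for nol-56, and 1.36 and 2.06 for fib-1. The gene hoe-1, whose enzyme trims the 3' side of precursor tRNAs, had 1.69 times (1.56 in replicate 1 and 1.61 in replicate 2). Of 13 genes for RNA polymerase III, SNAPc and their partners, 0 had a peak, with a median of 1.37 times over the 10 with a pooled region. The highest there was rpc-1, the largest polymerase III subunit, at 2.10 times (1.46 in replicate 1 and 2.06 in replicate 2). The gene rpc-25, for another subunit, had 1.99 times (1.35 in replicate 1 and 2.38 in replicate 2). For snpc-4, the gene of the large SNAPc subunit, it was 1.69 (1.75 in replicate 1 and 1.04 in replicate 2).

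Among 6561 RNA genes with a listed region in all 3 lists, those most like each gene were found by the distance between their log2 signals over the median in replicate 1, replicate 2 and the pool. The nearest to rpr-1 were the ncRNA gene C30C11.14 (distance 0.12), linc-105 (0.14) and the ncRNA gene F08G2.12 (0.17). The peaks near linc-105 and F08G2.12 do not overlap those genes. The nearest to mrpr-1 were a tRNA gene (WBGene00014626) and the ncRNA gene ZK678.11, which share 1 region on X (0.20), and the ncRNA gene F26D10.23 (0.23). The distance between rpr-1 and mrpr-1 was 0.37, and 47 genes were closer to rpr-1 than that.

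On the ce10 build the pooled regions of rpr-1 and mrpr-1 had counterparts of the same signal at ranks 116 and 117, and both were in its thresholded list. Replicate 1 had counterparts at ranks 192 and 351. Replicate 2 had none within 0.1% of the signal for either gene. Counterparts were sought by signal, so this does not say that its ce10 list lacks a region over the genes.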

How the data were processed

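The deposited files are region lists in the narrowPeak format, on the builds ce11 and ce10. The accompanying listings of the authors give alignments plus a control as the source of a library's list, both libraries' reads as that of the pooled list, and these lists as that of the thresholded list. Aligner, peak caller and threshold: not given in the sources used here. The deposited signal is the caller's own value, and its scaling to depth is not stated. The deposited −log10 column was read as q-values by the order of the format's columns. Depth is unknown.

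Genes came from Ensembl release 115 (WBcel235, the assembly of ce11) and sequence from RefSeq. No listed region ran past a chromosome end, and RefSeq places both genes at the same bases. Rows overlapping a gene or 1 kb to either side by at least 1 bp were taken, and the strongest described it. Coordinates are 1-based. Second matches were sought with blastn 2.17.0 (e-value 0.001, no masking). Scripts ran under Python 3.11.15 with pandas 2.3.3, and the overlap steps were tested on simulated data. The text names both genes, their neighbours, the 3 likest RNA genes each, and members of the gene lists with a peak. No list member had a peak, so those named without one, and the genes named for the upstream elements, were chosen after their values had been seen. The genes and lists were chosen with earlier results of these data known. Alternatives were other flanks, orderings, scales and peak sets, merged regions, ce10 and each library alone.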

Additional observations from a re-analysis of the deposited data

How the results depend on the processing

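With 1 library left out, the rank ran from 113 to 192 for rpr-1 and from 62 to 351 for mrpr-1, the lower standing being in replicate 1 alone. The signal over the median region ran from 2.90 to 3.80 for rpr-1 and from 2.46 to 4.62 for mrpr-1. The summit offset ran from -13 to 68 bp for rpr-1 and from -136 to -6 bp for mrpr-1, and the regions within 1 kb of rpr-1 numbered 1 to 2. Ordered by q-value, rpr-1 and mrpr-1 both stood at rank 1, each tied with 178 other regions, the other gene's among them. A flank of 2000 bp gave 2 pooled regions at rpr-1 and 1 peak in the RNA processing list, at exos-3 (1184 bp from its 5' end), where the count with 1 kb was 0. A flank of 0 or 500 bp gave 1 region at mrpr-1. Genes with a peak numbered 286 at a flank of 0 bp and 331 for the strongest 50% of peaks, and RNA genes 148 and 158, against 607 and 258. With 1 library left out, the 248 strongest regions of the other library stood in for the peaks, and the counts were 561 to 603 and 210 to 268. RNA genes with both upstream elements and a peak numbered 3 to 4. By the same stand-in without replicate 2, mrpr-1 was not among them and R05D7.8 was. Replicate 2 had no ce10 region within 0.1% of the ce11 signal at either gene, so the mean signal on ce10 was not run. The cause of these shifts was not tested, the unknown depth limits all values, and no paired analysis was possible because there is 1 group.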
